A study of Rattus norvegicus with 42 samples.

Results

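The soleus and the extensor digitorum longus (EDL) muscles of 3 mature Wistar rats were compared after 7 days of hindlimb unloading (D7), which makes 6 of the 42 libraries of the series. The members were chosen by their labels: the libraries of rats U1, U2 and U3, unloaded for 7 days with no recovery, paired by the rat, since both muscles of a rat carry its number. The rats were hung by the tail, which takes the load off the hind legs, and 1 muscle of each kind was frozen from each rat. Other rats of the series were controls that moved freely, or had shorter unloading or days of recovery, with 3 rats in each of 7 phases. The 6 libraries of control rats U6, U7 and U8 served for comparison. The number of rats limits the precision of every value given here.

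Each library was made by CAGE, which reads the 5′ end of capped RNA, so a tag marks the first base of that RNA (CTSS). Whether a tag inside a gene marks a start of transcription was not tested. Tags were counted in clusters of neighbouring CTSS on 1 strand, called TSS peaks here. The table held 9971 peaks on Rnor_6.0, and 9969 were left without chromosome MT. Of these, 9287 passed the filter on low counts and were tested. Levels are normalised CPM, the tags of a peak relative to all tags in tested peaks after TMM scaling. They were not divided by the length of a peak or gene.

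Soleus is a postural muscle built mainly of slow fibers, and EDL is built mainly of fast fibers. Which myosin heavy chain gene a fiber expresses defines its type, and Myh4 encodes the heavy chain of the fastest type (IIb). In rat the fast and developmental heavy chain genes stand side by side on 1 chromosome. Unloading makes soleus shrink, and its fibers are known to move towards faster types. The files do not pair peaks with genes, and no gene models of Rnor_6.0 were used here. Peaks are therefore given by position, and only Myh4 and Rtkn, placed by the pictures of the study, are named. Myh4 is thus the only fiber type marker against which the muscle labels were checked.

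Myh4 was the only fiber type marker that could be placed here, so the stretch before its start is shown. It comes from RefSeq on GRCr8 (chr10:52421898-52422147, plus strand, 250 bases that end at the base before the annotated start). This is another build than that of the tags, so no tag was placed on it. Capitals mark the letters TATAAA and CAGCTG on either strand.
Myh4: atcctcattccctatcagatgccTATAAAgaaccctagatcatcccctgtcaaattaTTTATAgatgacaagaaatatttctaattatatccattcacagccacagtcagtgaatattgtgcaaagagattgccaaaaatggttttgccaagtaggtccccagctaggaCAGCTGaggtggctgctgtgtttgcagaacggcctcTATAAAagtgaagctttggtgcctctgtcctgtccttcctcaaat
The letters TATAAA stood at 3 places (once on the minus strand), of which the nearest to the start began 45 bases before it. Of 33469 RefSeq windows of the same length, 12.9% held TATAAA. The letters CAGCTG, a form of CANNTG, stood at 1 place, 81 bases before the start, and 12% of the windows held them. CANNTG itself stood at 2 places, 1 of them this one, and 65.5% of the windows held it. The MEF2 consensus, searched on both strands, stood at 1 place 196 bases before the start, over the minus-strand TATAAA, and 2.96% of the windows held it.

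The 6 libraries held 4137652 to 14549791 tags, 70.0% to 79.1% of the sizes that their labels give. Mitochondrial CTSS took 6.43% to 8.30% of them and the nuclear TSS peaks 69.5% to 84.3%. EDL of U2 was the shallowest library and had the lowest TMM factor (0.652), and the other factors lay between 0.966 and 1.27. In 142 tested peaks the counts nearly repeated those of another peak elsewhere, and reads had been allowed to map to several places. These peaks held 21.8% to 32.5% of the peak tags, most in EDL of U2, and none of them is described singly here. The library names put 5 libraries in lane 3 and EDL of U3 in lane 6. Among peaks with at least 10 tags over the EDL libraries, 2 had at least 10 tags in soleus of U3 and 0 in the other soleus libraries. Both had all their EDL tags in U3.

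Of 9287 tested peaks, 794 (8.55%) differed between the muscles by edgeR's quasi-likelihood test with the rat as a block, with an adjusted p below 0.05 and a change of more than 1.25 on the log2 scale in either direction. Soleus was higher in 353 (3.8%) and EDL in 441 (4.75%). The median log2 fold change was −4.15 in peaks higher in EDL and 3.23 in peaks higher in soleus, beside 0.01 over all tested peaks. Of the 441, 111 lie in the region of Myh4 on chromosome 10 and are not independent of each other, and the 330 outside it had a median of −3.23. Fitted log2 differences exceeded 5 in 150 peaks higher in EDL, 80 of them in that region, and in 30 higher in soleus. The other muscle held 0 tags in 29 of the 441 called peaks and 6 of the 353, where the fitted size is not a bound. Fewer fibers of a type and less RNA per fiber cannot be told apart in such bulk samples. All 3 soleus libraries lay above all EDL libraries in each of the 353 peaks, and below them in 440 of the 441. Over all tested peaks the groups did not overlap in 27.6%. With library sizes alone in place of TMM, the median of all peaks moved to 0.33, with 459 calls higher in soleus and 386 higher in EDL, so which muscle had more calls depended on the scaling.

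**Figure D1:**
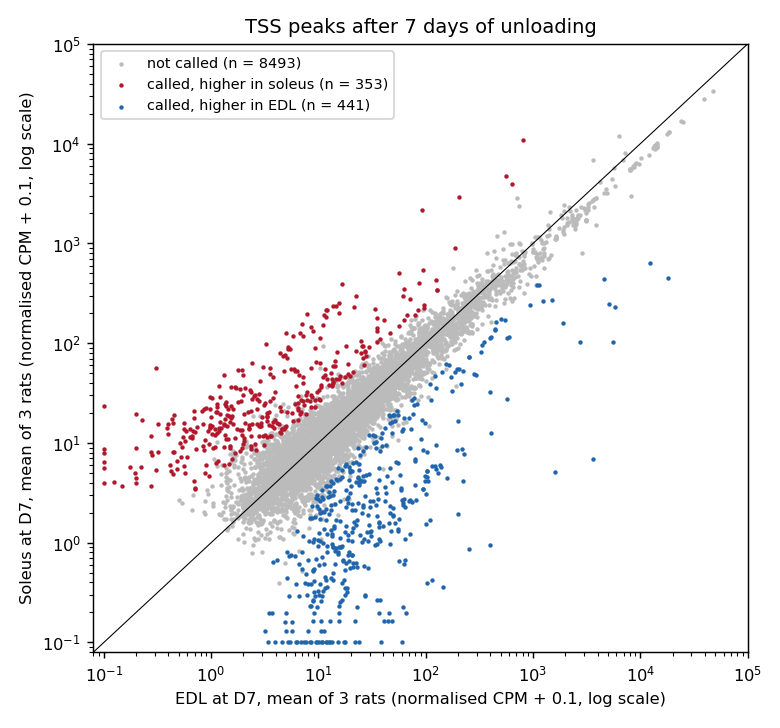
Mean normalised CPM of each tested peak over 3 rats in EDL (x axis) and soleus (y axis) at D7, both plus 0.1 on log scales, with the line of equal levels. Called peaks (353 higher in soleus, 441 higher in EDL) lie away from the line over the whole range of levels.

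The peaks called took a small share of the tags, though in the higher muscle it was above their share of the tested peaks (4.75% higher in EDL, 3.8% higher in soleus). Those called higher in EDL held 7.69% to 8.40% of the normalised CPM in the EDL libraries and 0.615% to 1.06% in soleus. Those higher in soleus held 4.07% to 6.0% in soleus and 0.297% to 0.824% in EDL. Peaks with over 1000 CPM in the higher muscle were few, 14 higher in EDL and 5 higher in soleus. The median width was 209 nt in peaks higher in soleus, 198 nt in those higher in EDL and 210.0 nt over all tested peaks. The most used base of a peak held a median of 22.6%, 22.3% and 24.2% of its tags in soleus of U1, U2 and U3 in peaks called higher in soleus, and 25%, 23.8% and 25.5% in uncalled peaks. In EDL it held 24.2%, 24.2% and 21.4% in peaks called higher in EDL, and 25.5%, 26.6% and 23.1% in uncalled peaks. Only peaks with at least 50 tags in the library entered these medians. The called peaks were lower in each of the 6 libraries, which was not tested. Their median level was 22.0 CPM (called higher in soleus) and 23.3 CPM (called higher in EDL) in that muscle. Over all tested peaks it was 15.6 CPM in the higher muscle.

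Myh4 was read almost only in EDL. On the plus strand its window on chromosome 10 held 35 tested peaks, between 53778241 and 53800524, and all 35 were called higher in EDL. Their summed level was 1572, 2135 and 1351 CPM in EDL of U1, U2 and U3, and 17.8, 4.90 and 11.3 CPM in soleus. Every EDL library thus stood far above every soleus library. In 8 of the 35 peaks the soleus libraries held 0 tags. The median log2 fold change (soleus over EDL) was −7.86, or −7.14 with those 8 peaks at their lower bound of 3 tags over the soleus libraries.

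The first 2 Myh4 peaks were not the strongest. The first (chr10:53778241-53778413) reached 9.15, 6.96 and 15.3 CPM in EDL, against 0.391, 0.0907 and 0 CPM in soleus. With only 3 tags in soleus the ratio of EDL to soleus was 83.1, with a 95% counting interval (exact) of 28.1 to 405, and it was 205 without U1, 56.6 without U2 and 46.4 without U3. The second (chr10:53778436-53778683) had 0 tags in soleus and was at least 75.8-fold higher in EDL. The strongest (chr10:53797328-53797599) lay far inside the gene, at 230.1, 369.5 and 167 CPM in EDL and 0.783, 0 and 1.49 CPM in soleus. Counted by CTSS, the 100 nt on each side of the start held 59, 14 and 211 plus-strand tags in EDL of U1, U2 and U3, and the body 10162, 4320 and 18544. In soleus these were 2, 1 and 0 and 89, 55 and 39. The minus strand of the body held 511, 328 and 918 tags in EDL. Intervals and bounds cover counting error only.

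The peaks around Myh4 went the same way. On the plus strand from 53711560 to 53843893, all 103 tested peaks were called higher in EDL, and so were all 8 on the minus strand inside it. In RefSeq on GRCr8, Myh1, Myh2 and Myh3 precede Myh4 and Myh8 and Myh13 follow it. Which peaks belong to them was not worked out, and the 4 arrays given next were drawn after their values were seen. The array just before Myh4 (53737880 to 53764563) held 34 peaks, with 2256, 3373 and 1824 CPM in EDL of U1, U2 and U3 and 205, 22.8 and 26.4 CPM in soleus. Soleus of U1 stood apart from the other rats there. The array before it (53711560 to 53735750) held 28 peaks, with 1197, 1447 and 834 CPM in EDL and 99.0, 50.7 and 57.9 CPM in soleus. In U2 and U3 that was the highest soleus level of these arrays. Farther off, 3 peaks from 53632914 to 53643843 summed to 41.2, 50.7 and 19.4 CPM in EDL and 4.31, 0.997 and 2.08 CPM in soleus. After Myh4, 6 peaks from 53825879 to 53843893 summed to 226, 344 and 143 CPM in EDL and 13.3, 3.54 and 3.86 CPM in soleus. The median log2 fold change was −4.04, −4.17, −5.43 and −5.36 in these arrays in the order of their positions.

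**Figure D2:**
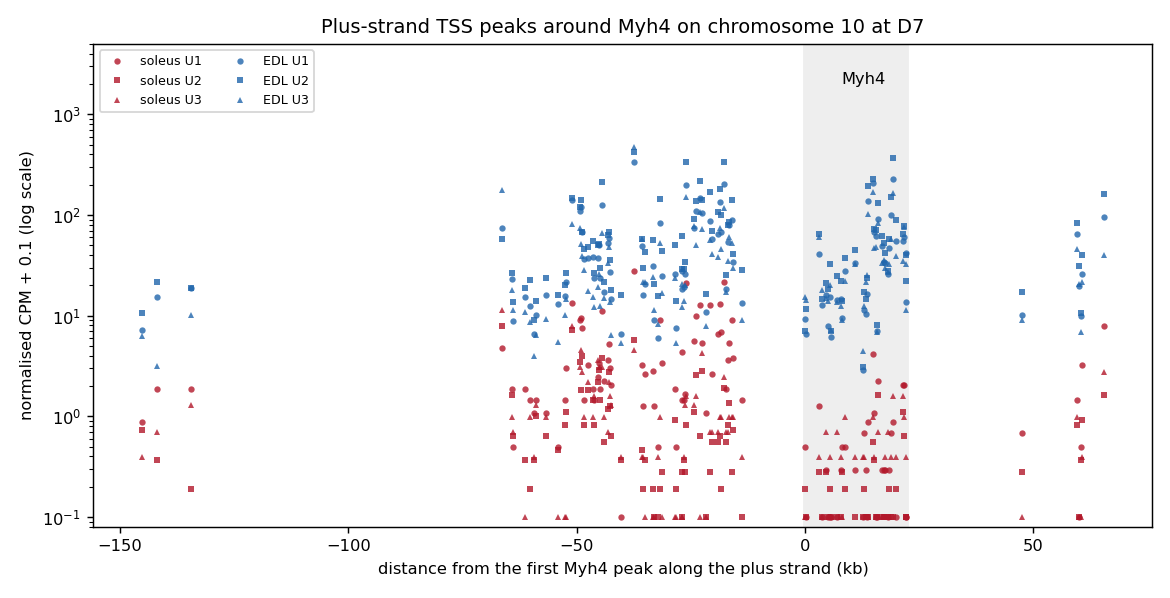
Normalised CPM plus 0.1 (log scale) of the plus-strand peaks on chromosome 10 against their distance in kb from the first Myh4 peak, in each library at D7 (color: muscle, shape: rat). All EDL points of a peak lie above its soleus points, and in the array just before Myh4 soleus of U1 sums to more than the other soleus libraries.

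The window of Rtkn held 1 peak, which was too low to be tested. By CTSS, the whole window held 17, 2 and 34 plus-strand tags in EDL of U1, U2 and U3 and 21, 26 and 4 in soleus. The muscles overlapped there.

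Many called peaks stood together. With peaks of 1 strand and direction joined over gaps of up to 50 kb, the 441 peaks higher in EDL fell into 201 stretches, of which 13 held 5 or more peaks and 198 of the peaks. The 353 peaks higher in soleus fell into 227 stretches, of which 6 held 5 or more peaks and 98 of the peaks. In no stretch of 4 or more was a peak inside it called the other way. By chromosome, 16.4% of the tested peaks of chromosome 10 were called higher in EDL and 22.0% of those of chromosome 15 higher in soleus, beside 4.75% and 3.8% over all peaks. Single peaks, with no tested neighbour within 1000 nt, were called higher in soleus in 2.93% and in EDL in 2.95%. In groups of 5 or more neighbours these shares were 7.6% and 18.3%. Peaks of 1 stretch can stem from 1 gene, so they are not independent of each other.

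The stretch with most peaks on the soleus side was chr15:33607830-33657899 (minus strand, 54 peaks called higher in soleus). It summed to 3934, 3318 and 3755 CPM in soleus of U1, U2 and U3 and to 354, 171 and 107 CPM in EDL, with a median log2 fold change of 4.21. The groups stood far apart, and EDL of U1 was the highest of the EDL libraries. On the other strand of this region, 6 peaks from 33614994 to 33658337 were also called higher in soleus. The next was chr12:39553698-39603279 (plus strand, 16 peaks called higher in soleus), with 2907, 2929 and 2945 CPM in soleus and 222, 78.6 and 70.8 CPM in EDL. Soleus varied little among the rats there, and EDL of U1 was again the highest EDL library. The most abundant was chr1:72889011-72899711 (plus strand, 9 peaks called higher in soleus), with 11258, 13412 and 9904 CPM in soleus and 1767, 553 and 347 CPM in EDL.

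On the EDL side, after the region of Myh4, the stretch with most peaks was chr1:197855948-197875279 (minus strand, 20 peaks called higher in EDL), with 4540.0, 5327 and 5829 CPM in EDL and 615, 572 and 301 CPM in soleus. Soleus kept a clear level there. In 3 other stretches of 5 or more peaks, outside the region of Myh4, soleus was close to 0. The first was chr1:100510377-100530305 (minus strand, 10 peaks called higher in EDL), with 493, 635 and 502 CPM in EDL and 0.783, 0 and 2.67 CPM in soleus. The second was chr1:220120948-220136534 (minus strand, 8 peaks called higher in EDL), with 1463, 2027 and 1498 CPM in EDL and 1.96, 1.09 and 12.5 CPM in soleus. The third was chr7:119428695-119443719 (minus strand, 5 peaks called higher in EDL), with 3725, 5904 and 1735 CPM in EDL and 5.48, 6.89 and 13.1 CPM in soleus. Soleus of U3 held the highest level of the soleus libraries in all 3 of these. With peaks of 0 tags in soleus at their lower bound, their median log2 fold changes were −6.72, −5.73 and −6.21.

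Of the peaks called, 293 higher in soleus and 367 higher in EDL had all 3 rats on the same side and at least 10 CPM in the higher muscle. The ranks by level and by size given next take at most 1 of these per strand and 50 kb. Among those higher in soleus, the most abundant was chr1:72889011-72889390 (plus strand), which had 10498, 12643 and 9237 CPM in soleus of U1, U2 and U3 and 1599, 497 and 321 CPM in EDL (log2 fold change 4.10 ± 0.72 (SE), adjusted p = 0.0148). EDL of U1 was the highest of the EDL libraries, and the groups stayed apart. It was followed by chr8:119030685-119031041 (plus strand), at 4392, 5682 and 4101 CPM in soleus and 925, 460.1 and 294 CPM in EDL (log2 fold change 3.23 ± 0.553 (SE), adjusted p = 0.0136). The next, chr16:7291921-7292342 (plus strand), was at 4301, 4330.2 and 3095 CPM in soleus and 1093, 529.7 and 271 CPM in EDL (log2 fold change 2.84 ± 0.519 (SE), adjusted p = 0.0175). Without U3 its call was lost (adjusted p = 0.0508, edgeR) at a log2 fold change of 2.52. Soleus of U3 was the lowest of the soleus libraries, and EDL of U3 of the EDL libraries, in all 3 peaks.

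The other 5 of the 8 most abundant peaks higher in soleus had log2 fold changes between 2.54 and 4.75. The smallest of these was chr4:176719890-176720170 (minus strand), with 466, 613 and 541 CPM in soleus and 119, 88.0 and 75.3 CPM in EDL (log2 fold change 2.54 ± 0.344 (SE), adjusted p = 0.00611). The largest was chr12:39553698-39554484 (plus strand), with 2036, 2449 and 1952 CPM in soleus and 168, 52.2 and 58.0 CPM in EDL (log2 fold change 4.75 ± 0.57 (SE), adjusted p = 0.0044). It opens the stretch on chromosome 12. For chr7:2912306-2912737 (minus strand), at 1002, 1104 and 592 CPM in soleus and 384, 95 and 86.2 CPM in EDL (log2 fold change 2.57 ± 0.506 (SE), adjusted p = 0.0241), the call was lost when all 42 libraries were fitted with the lane (log2 fold change 2.55, adjusted p = 0.0672, edgeR).

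The largest differences on the soleus side were in less abundant peaks. The peak chr9:49938079-49938511 (plus strand) had 21.9, 30.4 and 17.2 CPM in soleus and 0 tags in all EDL libraries, which makes it at least 192-fold higher in soleus. The peak chr2:266275441-266275666 (minus strand) had 60.5, 65.6 and 44.8 CPM in soleus and 0.465, 0 and 0.145 CPM in EDL (log2 fold change 7.74 ± 0.496 (SE), adjusted p = 0.00242). EDL was at or near 0 tags in every rat in both peaks. The peak chr1:25735124-25735282 (minus strand) was highest in soleus of U3, with 6.65, 4.17 and 39.8 CPM in soleus and 0.31, 0 and 0.0726 CPM in EDL. With 3 tags in EDL its ratio of soleus to EDL was 81.3 (95% exact counting interval 27.4 to 397), or 20.97 without U3 (5.62 to 176), 197 without U1 and 134 without U2, and it was too low to be tested in controls. Ranks 5 to 10 by size had fitted log2 fold changes of 5.50 to 6.33, all at under 1 CPM in every EDL library.

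Among the peaks higher in EDL, the most abundant was chr1:198655606-198655966 (plus strand), which had 17153, 25427 and 11729.7 CPM in EDL of U1, U2 and U3 and 764, 327 and 246 CPM in soleus (log2 fold change −5.45 ± 0.752 (SE), adjusted p = 0.00654). The next, chr3:161246218-161246427 (minus strand), was at 13236, 16608 and 7325 CPM in EDL and 1128, 419 and 351 CPM in soleus (log2 fold change −4.41 ± 0.671 (SE), adjusted p = 0.00887). Soleus of U1 was the highest of the soleus libraries in both, and the groups stayed apart. A steadier difference was that of chr9:73958278-73959013 (minus strand), with 5256, 6925 and 4666 CPM in EDL and 111, 86.3 and 108 CPM in soleus (log2 fold change −5.78 ± 0.558 (SE), adjusted p = 0.00297). The widest was that of chr7:119443532-119443719 (minus strand), with 3566, 5578 and 1629.5 CPM in EDL and 4.31, 3.26 and 12.8 CPM in soleus (log2 fold change −9.18 ± 1.02 (SE), adjusted p = 0.00356). It belongs to the stretch on chromosome 7 in which soleus was close to 0. The other 4 of the 8 most abundant had log2 fold changes between −4.90 and −3.45.

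By fitted size, with at most 1 peak per strand and 50 kb, the first 5 peaks on the EDL side had 0 tags in every soleus library. Their ranks rest on fitted values, not on the bounds given here. The first, chr10:53793797-53793912 (plus strand), lies inside Myh4 and had 61.1, 71.6 and 48.4 CPM in EDL, at least 352-fold above soleus. The other 4 of them were at least 50.9-fold to 77.8-fold higher in EDL. The sixth, chr13:108601111-108601298 (minus strand), had 16.3, 56.7 and 37.4 CPM in EDL and 1 tag in soleus, a ratio of 644 (95% exact counting interval 115 to 25474), or 259.9 without U2. The tenth, chr3:148365060-148365523 (plus strand), was at 121, 46.8 and 22.9 CPM in EDL and 0.783, 0.635 and 0.297 CPM in soleus (log2 fold change −6.60 ± 0.399 (SE), adjusted p = 0.00242). Its EDL level was highest in U1, while in the first 6 it was highest in U2.

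**Figure D3:**
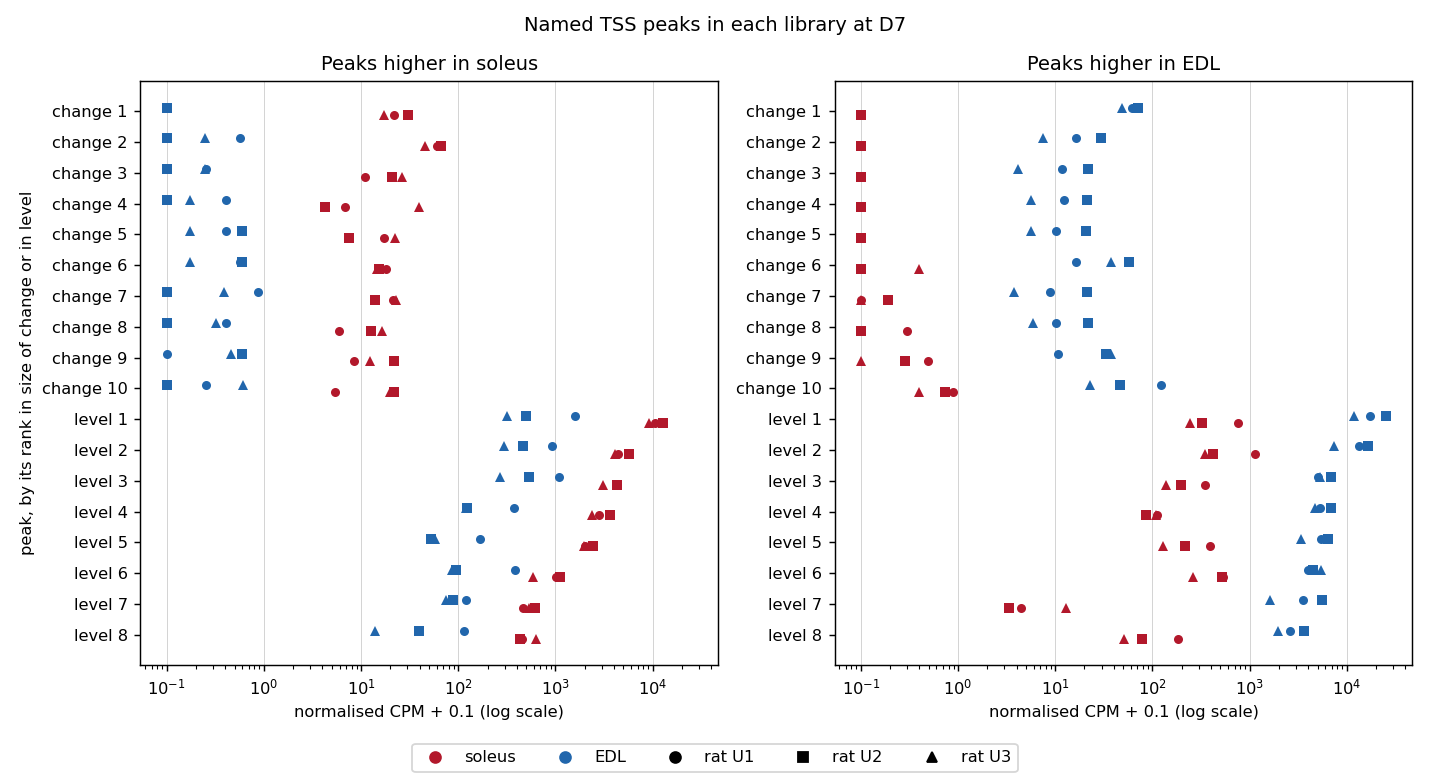
Normalised CPM plus 0.1 (log scale) of the 36 peaks named by rule, in each library at D7 (color: muscle, shape: rat), by rank in size of change and in level. The muscles do not overlap in any of the 36 peaks.

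The most used start base was looked up in these 36 peaks as a description, with no test, since 3 pairs cannot go below an exact two-sided p of 0.25. In 24 of them the 3 libraries of the higher muscle shared 1 base. In 16 peaks all 6 libraries had at least 10 tags, and in each of these some soleus and some EDL library shared the base, with 1 base in all 6 libraries in 9 peaks. In the peak chr4:176719890-176720170, soleus of all rats and EDL of U1 used base 176719941, while EDL of U2 and U3 used base 176719965, 24 nt away. Over all peaks, the share of each peak in its group of neighbours (gaps of up to 1000 nt) was tested: of 1586 peaks in 526 groups, 0 (0.0%) were called by edgeR's diffSpliceDGE, and 29 had an unadjusted p under 0.05. The smallest adjusted p was 0.380. In simulated counts of these libraries, where the level of 92 peaks was shifted by 2.5 (log2) and their estimated share in the group differed by a median of 1.11, the test found 24. No group held called peaks of both directions.

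In control rats, the same fit called 1356 of 9308 peaks (14.6%), 652 (7.0%) higher in soleus and 704 (7.56%) higher in EDL, and its median standard error was smaller (0.245 on the log2 scale, against 0.362 at D7). Of the 353 peaks higher in soleus at D7, 339 were tested in controls and 286 were called the same way there. Of the 441 higher in EDL, 429 were tested and 365 were called the same way. The sign was the opposite in 10 and 17, and in 5 of these the opposite call was made. The 339 peaks had a median log2 fold change of 3.22 at D7 and 4.15 in controls, and the 429 peaks −4.13 and −3.49. The peaks were chosen by their D7 values. From the other side, the peaks called in controls and tested at D7 went from a median of 2.58 in controls to 1.65 at D7 (636 higher in soleus) and from −2.67 to −2.02 (685 higher in EDL). Across 9179 peaks tested in both, which are not independent replicates, Pearson's r of the log2 fold changes was 0.858. The phases share no rat or library.

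All but 1 of the 36 peaks named by rule were called the same way in controls, and that 1 (chr1:25735124-25735282) was too low to be tested there. Of the 8 most abundant peaks higher in soleus, 8 had the larger difference in controls. In controls the most abundant of them, chr1:72889011-72889390, had 7906, 6564 and 12364 CPM in soleus of U6, U7 and U8 and 34.9, 269 and 305 CPM in EDL, a log2 fold change of 5.86 against 4.10 at D7. The widest gap between the phases was at chr7:2912306-2912737, with 1597, 1388 and 2299.7 CPM in soleus and 6.69, 26.1 and 34.1 CPM in EDL of controls, a log2 fold change of 6.55 against 2.57 at D7. At chr7:2912306-2912737 the EDL level was lower in every control rat than in any D7 rat. At chr1:72889011-72889390, EDL of control rat U8 (305 CPM) and of U3 at D7 (321 CPM) were too close to be ordered across separate scalings. Of the 8 most abundant peaks higher in EDL, 6 had the larger difference at D7. The most abundant of these, chr1:198655606-198655966, had 16950.4, 16200.2 and 18382 CPM in EDL and 806, 915 and 1459 CPM in soleus of controls, a log2 fold change of −4.07 against −5.45 at D7. Controls and D7 were scaled separately for these levels. In the edgeR test of the difference between the phases, described further on, 0 of these 16 peaks passed an adjusted p of 0.05 and 7 had an unadjusted p under 0.05, beside 0.631% and 10.4% over all peaks. The smallest adjusted p was 0.0758, at chr7:2912306-2912737.

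To place whole libraries, the 1356 peaks called in controls were averaged on the log2 CPM scale so that control EDL stood at 0 and control soleus at 1, with each control library set against the other control rats. Soleus at D7 stayed near the control soleus, at 0.90, 1.00 and 1.00 in U1, U2 and U3 (mean 0.969 ± 0.0565 SD), and control soleus was at 0.99, 0.94 and 1.07 in U6, U7 and U8. EDL at D7 lay off the control EDL towards soleus, at 0.32, 0.17 and 0.27 (mean 0.253 ± 0.0785 SD), against −0.043, 0.040 and 0.0018 in controls. The D7 and control EDL libraries did not overlap, but the soleus libraries did. With 3 rats against 3 no exact test could go below p = 0.10, and none was made. The peaks were called on the control libraries, and the part of that choice in the place of the other libraries was not tested. EDL libraries of the phases other than D7 and controls lay between 0.0498 and 0.265, and those of soleus between 0.765 and 1.06. All control libraries were in lane 1 and the D7 libraries in lanes 3 and 6, so lane and phase cannot be told apart here.

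**Figure D4:**
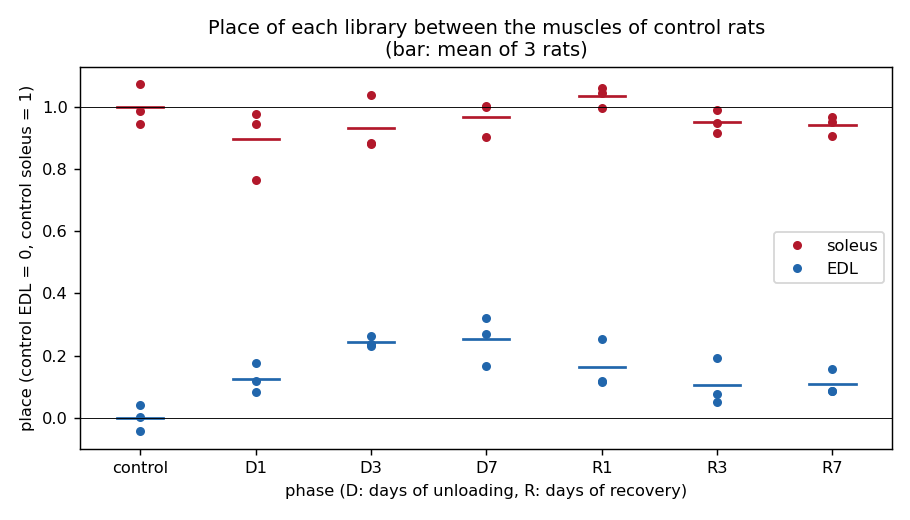
Place of each library (point) and mean of 3 rats (bar) on a scale where control EDL is 0 and control soleus is 1, by phase, over the 1356 peaks called between the muscles in controls. EDL at D7 (0.17 to 0.32) is above control EDL, and soleus at D7 (0.90 to 1.00) overlaps control soleus.

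Whether the difference between the muscles itself changed with unloading was tested as an interaction over the 12 libraries of D7 and controls, scaled together, with the rat as a block. Of 9504 peaks, 60 (0.631%) were called by edgeR, and 992 had an unadjusted p under 0.05. In 47 (0.495%) the soleus over EDL difference was lower at D7, and in 13 (0.137%) it was higher. In 43 of the 47, the mean level at D7 was below controls in soleus and above them in EDL, and in all 13 it was above them in soleus and below them in EDL. Of the 47, 43 were higher in soleus in controls and 16 at D7. Their median difference went from 2.77 to −0.62 on the log2 scale. Of the 13, 0 were higher in soleus in controls and 11 at D7, with median differences of −1.59 and 1.18. The peaks were chosen by this test, so these values only describe them.

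The number of calls depended on single rats. Without control rat U7 it was 0 (730 peaks at an unadjusted p under 0.05), without control rats U6 and U8 it was 13 and 5, and without U1, U2 and U3 it was 9, 55 and 35. The 5 largest calls in each direction with at least 10 CPM on average in 1 of the 4 groups, given next, were all lost without U7, where each of the 60 peaks kept its sign. DESeq2 called 187, all 60 among them. With library sizes alone 57 were called, 52 of them lower at D7 and 37 of them among the 60. Both muscles of a rat shared a lane except in U3 (lanes 3 and 6), but the lanes differed between controls and D7, and the part of the lane in these calls was not tested.

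The largest change among these was at chr15:4069082-4069615 (plus strand), where soleus was at 56.4, 46.2 and 101 CPM in controls U6, U7 and U8 and at 2.89, 3.62 and 1.37 CPM at D7, and EDL at 1.60, 1.36 and 1.33 CPM in controls and at 21.4, 8.10 and 5.53 CPM at D7. The controls and D7 did not overlap in either muscle, and the order of the muscles turned (interaction −7.51 ± 0.558 (SE), adjusted p = 0.00561). At chr2:187692170-187692456 (plus strand), soleus was at 4.22, 2.90 and 7.29 CPM in controls U6, U7 and U8 and at 5.24, 1.85 and 1.1 CPM at D7, and EDL at 1.06, 0.905 and 2.93 CPM in controls and at 70.4, 183 and 19.1 CPM at D7. Soleus overlapped between the phases, and EDL was far higher at D7 in all rats (interaction −6.61 ± 0.816 (SE), adjusted p = 0.0196). At chr1:254735508-254735753 (minus strand), soleus was at 25.6, 3.15 and 12.3 CPM in controls U6, U7 and U8 and at 5.79, 1.35 and 4.11 CPM at D7, and EDL at 21.1, 4.07 and 6.91 CPM in controls and at 236, 278 and 96.9 CPM at D7. Here too it was EDL that stood apart (interaction −6.19 ± 0.759 (SE), adjusted p = 0.0196). The other 2 of the 5 largest on this side were chr17:19056765-19056962 (plus strand), with an interaction of −7.27 ± 0.735 (SE), adjusted p = 0.008, and chr5:154109163-154109434 (plus strand), with −5.26 ± 0.694 (SE), adjusted p = 0.0291. In the latter, control rat U7 had 20.9 CPM in soleus, far below the 264 and 468 CPM of U6 and U8.

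On the other side, at chr15:27818986-27819819 (minus strand), soleus was at 17.3, 14.0 and 11.4 CPM in controls U6, U7 and U8 and at 36.4, 44.1 and 51.5 CPM at D7, and EDL at 47.9, 43.0 and 36.4 CPM in controls and at 17.5, 4.05 and 10.2 CPM at D7. Both muscles stood apart between the phases, and the order of the muscles turned (interaction 3.72 ± 0.522 (SE), adjusted p = 0.0398). At chr9:19532157-19532269 (minus strand), soleus was at 1.43, 2.27 and 2.30 CPM in controls U6, U7 and U8 and at 3.26, 2.61 and 2.46 CPM at D7, and EDL at 31.7, 21.7 and 24.5 CPM in controls and at 2.45, 5.40 and 1.30 CPM at D7. Soleus was slightly higher in every D7 rat and EDL far lower, so that the muscles came close at D7 (interaction 3.78 ± 0.612 (SE), adjusted p = 0.0416). The other 3 of the 5 largest were chr10:75457193-75457472 (minus strand), chr2:41418245-41418644 (plus strand) and chr9:81968587-81969019 (plus strand), with interactions of 3.30, 2.96 and 2.94 on the log2 scale and adjusted p-values of 0.0416, 0.0291 and 0.041 (edgeR).

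**Figure D5:**
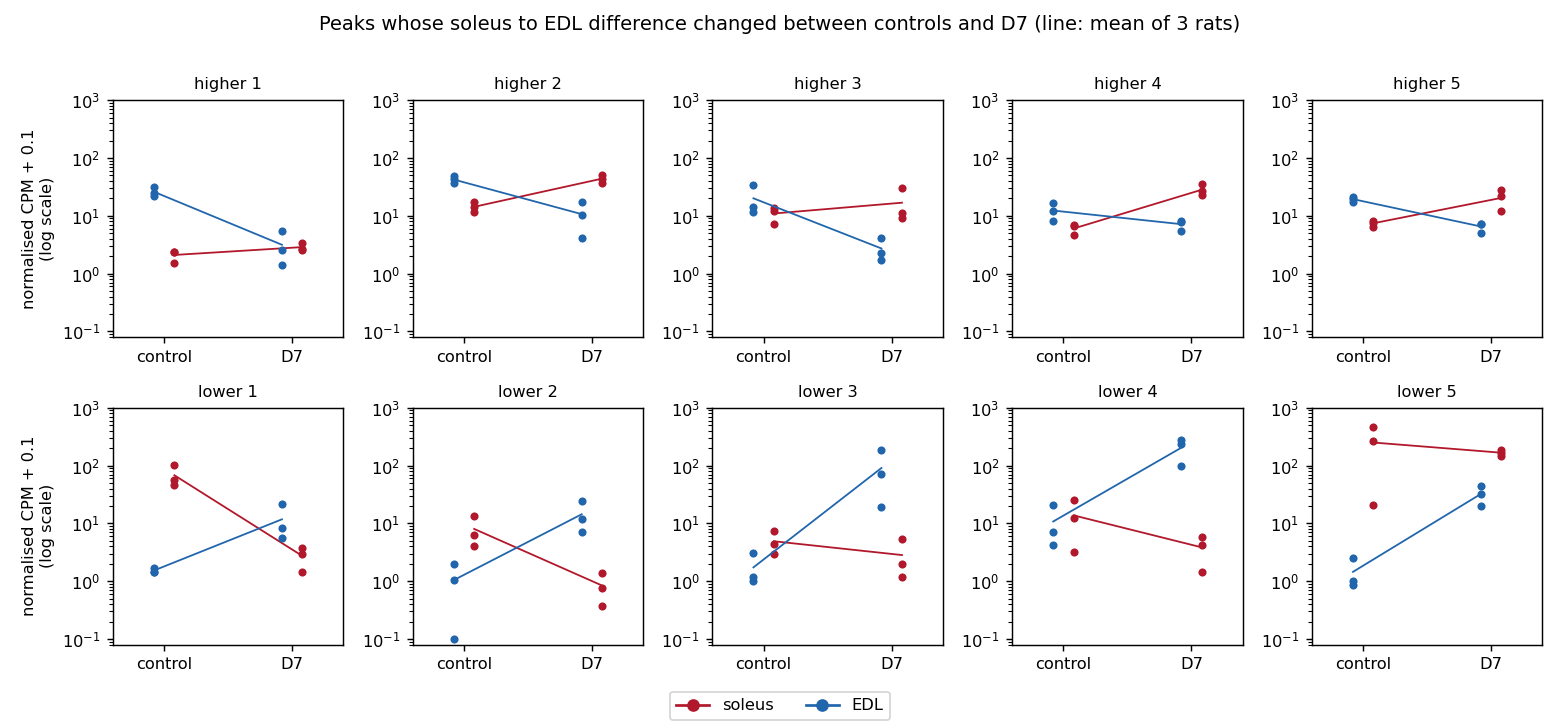
Normalised CPM plus 0.1 (log scale, 12 libraries scaled together) in controls and at D7 for the 5 largest interaction calls in each direction (points: rats, lines: means of 3 rats). In the lower row the EDL means are higher at D7 than in controls, and in the upper row they are lower.

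No peak of the region of Myh4 was among the 60 calls. The summed Myh4 peaks stood at 3405, 3925 and 3441 CPM in EDL of controls U6, U7 and U8 and at 1462, 1932 and 1271 CPM at D7, lower in every unloaded rat. In soleus they stood at 24.6, 39.0 and 6.52 CPM and 16.5, 4.54 and 10.4 CPM, which overlapped. In the array just before Myh4, soleus of U1 at D7 (189 CPM) was above the controls (76.2, 123 and 23.2 CPM), while U2 and U3 were at 21.1 and 24.4 CPM. In the array before that one, soleus stood at 384, 588 and 97.8 CPM in controls and 91.5, 47.0 and 53.4 CPM at D7, lower in every unloaded rat. The order of U1 at D7 and control rat U8 was close, and U1 stood at 99.0 CPM with D7 scaled alone. There 22 of 28 peaks had an unadjusted p under 0.05 in the interaction, with a median of −2.38, and 0 were called. Over all peaks 10.4% had such a p. Elsewhere the unadjusted p was under 0.05 in 7 of 34 peaks of the array just before Myh4 (median 1.93, the other sign), in 2 of 35 Myh4 peaks (median 1.24), in 1 of 6 after Myh4 and in 3 of 5 of the farthest array. The sums were not tested.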

How the data were processed

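The data were nAnT-iCAGE libraries of total RNA (RIN of at least 7 per the labels) from rat soleus and EDL muscle. The authors mapped reads to Rnor_6.0, with reads allowed to map to several places, made CTSS counts and deposited raw counts of tags per cluster, which were used as deposited. Per the file headers, CTSS of all 42 libraries went into 1 clustering. The submitters' processing notes name Trimmomatic 0.38, BWA and HISAT2, and the methods of the study name STAR. The deposited table also holds RPM columns that the authors scaled per library, which were not used. Every column of counts matched a sample.

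Counts were tested with edgeR 4.0.16 (R 4.3.3): filterByExpr (minimum count 10), TMM, quasi-likelihood F test with the rat as a block and Benjamini-Hochberg adjustment over all peaks tested. Calls needed an adjusted p below 0.05 and a change of more than 1.25 on the log2 scale in either direction. The interaction was tested over the D7 and control libraries (2863483 to 13913984 tags in tested peaks) with the same settings. Start usage was tested with diffSpliceDGE, with peaks joined over gaps of up to 1000 nt and called at an absolute difference over 1. Standard errors are the log2 fold change over the root of F. DESeq2 1.42.0, other scalings, no filter, thinned counts, all 42 libraries, the lane and leaving out each rat were alternatives. In simulated counts of these libraries, edgeR found 185 of 197 peaks shifted by 2.5 (log2) between soleus and EDL, and 126 of 199 in the interaction.

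Named peaks were those called with 3 rats on the same side and at least 10 CPM in the higher muscle: the 10 largest changes and the 8 highest levels in each direction, at most 1 per strand and 50 kb. For the interaction they were the 5 largest in each direction by the same spacing, with at least 10 CPM on average in 1 of the 4 groups. The members and lists were chosen with earlier results of these data known. A replicate is 1 rat, and the muscles were paired by the rat number, which marks the same animal. Deviations of same-numbered libraries from their muscle's mean correlated at 0.15, −0.35 and −0.21 over peaks, and those of differently numbered libraries at −0.26 to 0.42. Where a muscle held 0 tags, folds are lower bounds from 3 tags over its libraries. Lanes come from the library names. Intervals (95%, exact) cover counting error only.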

Additional observations from a re-analysis of the deposited data

Results flagged for a closer look

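The difference between soleus and EDL changed between controls and D7 in 60 peaks, by the test of that difference itself (edgeR, muscle by phase). Among those with at least 10 CPM on average in 1 of the 4 groups, the largest changes, on the log2 scale, were −7.51 (chr15:4069082-4069615), −7.27 (chr17:19056765-19056962), −6.61 (chr2:187692170-187692456), −6.19 (chr1:254735508-254735753) and −5.26 (chr5:154109163-154109434). In the other direction they were 3.78 (chr9:19532157-19532269), 3.72 (chr15:27818986-27819819), 3.30 (chr10:75457193-75457472), 2.96 (chr2:41418245-41418644) and 2.94 (chr9:81968587-81969019). None of the 10 was called without control rat U7, where 0 peaks were called in all and 730 had an unadjusted p under 0.05. Control libraries were in lane 1 and D7 libraries in lane 3, but for EDL of U3 in lane 6. Without U3, 35 peaks were called, 22 of them among the 60. The part of the lane was not tested.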

How the results depend on the processing

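The 794 calls between soleus and EDL at D7 became 758 to 1038 under the alternatives, and every called peak that could be tested kept its sign. Of the 794, between 659 (without U1) and 793 (no filter) were called again, with 673 under the fit with the lane. Leaving out 1 rat gave 759 to 901 calls. Without the rat as a block, 948 peaks were called in place of 794, and 780 of the 794 were among them. In the interaction, the fit with no replicate block called 70 in place of 60, of which 44 were shared, and in start usage both fits called 0 (43 peaks against 29 at an unadjusted p under 0.05 by diffSpliceDGE). The interaction count was 187 by DESeq2, 37 in thinned counts and 116 with all 42 libraries, and 0 to 55 when 1 rat was left out. Each fit without a rat has fewer libraries than the main fit, and the cause of these changes was not tested. With library sizes alone, 54.3% of the calls at D7 were higher in soleus (44.5% with TMM), and 8.77% of those of the interaction were higher at D7 (21.7% with TMM). Among the 36 peaks named by rule and the Myh4 peaks, 3 lost their call under 1 alternative each: chr16:7291921-7292342 without U3 (log2 fold change 2.52 against 2.84), and with the lane chr7:2912306-2912737 (2.55 against 2.57) and 1 Myh4 peak (−7.55 against −5.43). Of these peaks, 2 were too low to be tested in thinned counts. The place of D7 EDL and soleus moved by less than the spread between rats under each alternative. The settings without a control rat used as many peaks as the main one (1356), and the choice of these peaks on the control libraries was not tested. Without the 142 peaks that nearly repeat another, a choice made after the data were seen, 789 and 66 peaks were called. The shallowest library (4137652 tags) and 3 rats limit what could be detected.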
